A study of Mus musculus with 9 samples.

Results

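The genes described here are 8 mouse transcription factor genes that direct dendritic cell development: Irf4, Irf8, Batf3, Id2, Spi1, Zbtb46, Klf4 and Bcl6. For each gene, every peak of open chromatin that overlapped its span or the 50 kb on either side was taken, with no use of peak strength. They are 8 of 21887 protein-coding genes. Merging the peaks of the 4 lists gave 194768 regions over the genome, of which 293 lay at the 8 genes.

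Chromatin accessibility was measured by ATAC-seq, which cuts and tags open DNA with a transposase, in bone marrow cultures of C57Bl/6 mice grown with 20 ng/mL GM-CSF for 9 days. All cultures received a retrovirus on day 2 and were sorted for the human CD8 reporter together with CD11c, a surface protein of dendritic cells and also of some macrophages. The mi8 group carried the control vector for overexpression and the OE group the vector that overexpresses Pcgf6. The LMP8 group carried the control vector for knockdown and the HP109 group a hairpin RNA against Pcgf6. Each vector had 2 libraries and 1 input library served all 4. The authors deposited 1 peak list per vector, so no spread between replicates exists, no test between vectors was possible, and every difference between lists is a description.

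PCGF6 is a subunit of a variant Polycomb repressive complex, PRC1.6, which is brought to DNA by the E2F6 and MGA–MAX proteins. Conventional dendritic cells fall into a class called cDC1, which takes up dead cells and primes CD8 T cells and depends on IRF8, BATF3 and ID2, and a class called cDC2, in which IRF4 and KLF4 act. PU.1, the product of Spi1, acts upstream of both, ZBTB46 marks the committed conventional lineage, and BCL6 is a repressor needed by several of its subsets. GM-CSF cultures of marrow hold dendritic-like cells beside macrophage-like cells.

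The mi8 list held 170976 peaks, the OE list 111510, the LMP8 list 140735 and the HP109 list 170103. Strength below is the deposited −log10 q, a measure of how far the reads at a peak exceed the local background, and it is read only within a list. A peak counts as absent from another list when no peak there shares at least 1 base with it. A peak missed by the caller and a closed site therefore look alike, and a site open in fewer cells cannot be told apart from one less open per cell. Genes of the labelled cell type were checked by peaks within 1000 bases of a gene end: 6 of 9 dendritic cell markers and 7 of 7 macrophage markers had one in all 4 lists. The same held for 2 of 7 granulocyte, 2 of 7 lymphoid or plasmacytoid and 2 of 4 erythroid markers. Mpo, Pax5, Cd3e and Gata1 had none within that distance in any list. The part of macrophage-like cells in the values below was not tested.

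Promoter sequence was read for the members because the complex named above binds through known short motifs. The RefSeq table of GRCm38.p6, the assembly that mm10 is built on, held 9 promoter entries for 7 of the 8 members. Of these, 7 overlapped a peak in all 4 lists and 2 overlapped none in any list, namely the Zbtb46 entry and the second Irf8 entry. In the 250 bases before each start, CACGTG, the E-box bound by MGA and MAX, occurred in 3 entries, those of Batf3, Klf4 and Bcl6, against 6.02% of all 32851 promoters in the table. GCGGGAA, an E2F motif, occurred in 2 of them, Batf3 and Klf4, and 0.338% of all promoters held both motifs. Among promoters with at least 20 CpG dinucleotides, 10.1% held CACGTG and 1.07% held both. The 3 promoters with the E-box follow, 5′ to 3′ on the gene's own strand, with capitals marking the matches to CACGTG, to GCGGGAA and to GAGGAA, the core motif of PU.1.
Batf3: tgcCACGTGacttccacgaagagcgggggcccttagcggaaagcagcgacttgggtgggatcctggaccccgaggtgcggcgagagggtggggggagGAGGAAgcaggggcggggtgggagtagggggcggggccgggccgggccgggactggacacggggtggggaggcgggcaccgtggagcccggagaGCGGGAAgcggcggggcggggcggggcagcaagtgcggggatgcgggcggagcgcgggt
Klf4: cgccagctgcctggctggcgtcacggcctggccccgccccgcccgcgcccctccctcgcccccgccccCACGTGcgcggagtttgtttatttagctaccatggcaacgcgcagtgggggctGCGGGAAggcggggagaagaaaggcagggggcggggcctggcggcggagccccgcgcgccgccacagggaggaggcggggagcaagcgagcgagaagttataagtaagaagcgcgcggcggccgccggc
Bcl6: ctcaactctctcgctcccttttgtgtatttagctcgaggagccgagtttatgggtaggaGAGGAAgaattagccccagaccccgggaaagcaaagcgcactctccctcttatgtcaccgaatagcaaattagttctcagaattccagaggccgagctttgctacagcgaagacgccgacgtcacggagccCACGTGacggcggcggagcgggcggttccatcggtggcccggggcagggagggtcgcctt
The Batf3 stretch is chr1:191098164-191098413 on the plus strand, the Klf4 stretch chr4:55532476-55532725 on the minus strand and the Bcl6 stretch chr16:23988853-23989102 on the minus strand. The E-box began 247 bases before the Batf3 start, 182 before the Klf4 start and 60 before the Bcl6 start. These stretches are rich in CpG, with 27 in Batf3, 32 in Klf4 and 21 in Bcl6, against a median of 6 over all promoters. A motif match describes the letters only and is not a measured binding site.

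The other motifs were searched on both strands in the same windows. GAGGAA occurred in Batf3, Bcl6 and, on the reverse strand, Irf4 (23.3% of all promoters). TGANTCA, the AP-1 motif used by BATF proteins, occurred in the Zbtb46 entry (6.75%), and the composite of a PU.1 and an IRF motif, GGAA followed after 2 bases by GAAA, in the second Bcl6 entry (2.30%). The IRF element, GAAA followed after 2 bases by GAAA, which can overlap the composite, occurred in none (2.98%). Nor did the NF-κB motif, GGGAA followed after 1 base by TTCC (0.283%). The Irf8 and Id2 entries held none of the 7 motifs.

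The member genes lay in densely marked chromatin in every list. Their median density was 27.1 peaks per 100 kb of window in mi8, 17.5 in OE, 24.9 in LMP8 and 27.1 in HP109. The medians over all protein-coding genes were 11.2, 7.33, 9.36 and 11.3 in the same order. Another 24 dendritic cell factor genes, such as Zeb2, Ikzf1 and Nfil3, stood between, at 20.5, 14.1, 19.3 and 20.7. In mi8 the members ran from 17.1 to 42.5 peaks per 100 kb, the 73.6th to the 99.7th percentile of all genes, with Klf4 and Id2 at the lower end and Batf3 at the top. A window can hold peaks of neighbouring genes: Zbtb46 shared its window with 7 other protein-coding genes, Spi1 with 5, Irf4 and Batf3 with 2 each and Id2 and Bcl6 with 1 each, whereas the windows of Irf8 and Klf4 held none.

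**Figure D1:**
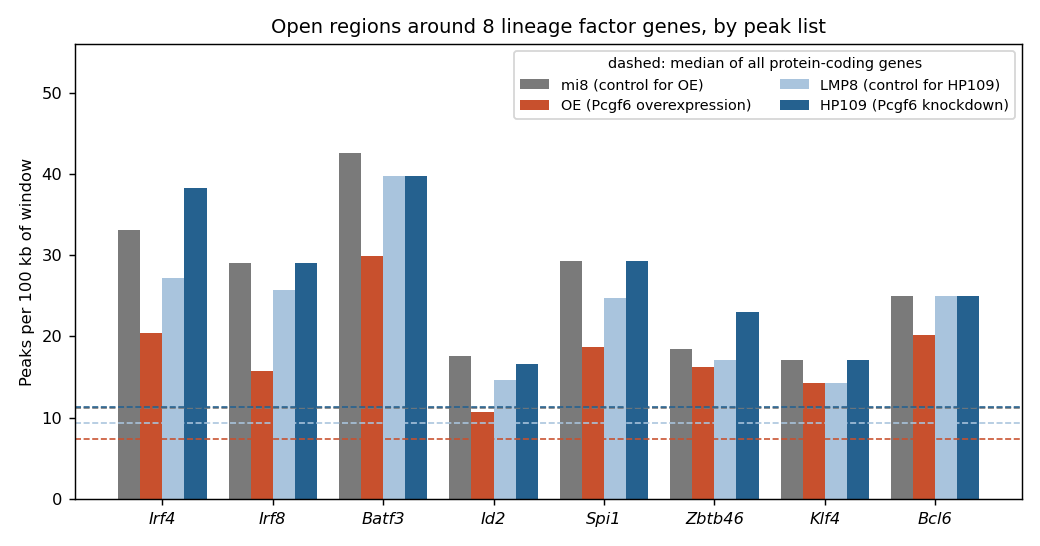
Peaks per 100 kb in the window of each member gene (horizontal axis, gene; vertical axis, peaks per 100 kb), with 1 bar per peak list and dashed lines at the median of all protein-coding genes in each list. All 8 members sit above the all-gene median in each list, and Batf3 is highest in mi8 at 42.5 peaks per 100 kb.

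Of the 293 regions, 163 (55.6%) were present in all 4 lists, against 47.1% of all regions. Another 41 were present in every list but OE, which is 13.99% of the member regions against 14% of all regions. Regions of mi8 alone numbered 20 (6.83%, against 9.89% of all regions), of HP109 alone 22 (7.51%, against 8.49%), of LMP8 alone 6 (2.05%, against 2.3%) and of OE alone 3 (1.02%, against 1.28%). Every list but LMP8 held 5 regions (1.71%, against 2.84%), and no region was missing from mi8 alone (0.281% of all regions) or from HP109 alone (0.388%). By position, 94 regions overlapped a gene span, 90 lay before its lower end and 109 beyond its upper end. Regions at least 1000 bases wide made up 8.53% at the members and 4.26% of all regions, and all 25 of them were present in all 4 lists, against 99.4% of all regions of that width. Exons and introns were not annotated here, so positions are given by gene span and distance.

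Gene ends, the lower and upper coordinates of the RefSeq span, were the first place examined. All 8 members had a peak within 1000 bases of an end in each list, against 64.8% of all genes in mi8, 58.2% in OE, 62.4% in LMP8, 64.3% in HP109 and 57.5% in all 4 together. Both ends were marked in 4 members in mi8 (15.6% of all genes), 3 in OE (10.6%), 4 in LMP8 (13%) and 4 in HP109 (15.6%). The lower OE count rests on the distance limit: the region after the second end of Batf3 was present in all 4 lists, with a −log10 q of 45.3 in mi8, 34.8 in OE, 39.0 in LMP8 and 42.6 in HP109. Its OE peak began 1030 bases from the end and those of the other lists 981 to 991 bases from it.

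**Figure D2:**
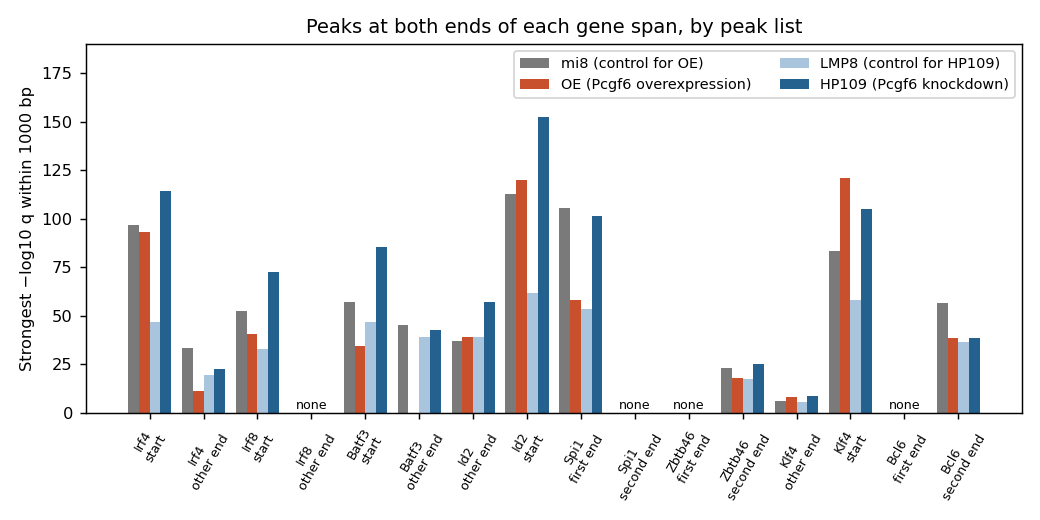
Strength (−log10 q) of the strongest peak within 1000 bases of each gene end, with 1 bar per list and "none" where no list had a peak. The strongest peaks of different lists can be different sites, as at the second end of Zbtb46. First and second end are the lower and higher coordinate where no start was used. The tallest bar is the Id2 start in HP109 at 152.4, and the second end of Batf3 has no OE bar because the OE peak there, of −log10 q 34.8, began 1030 bases from the end.

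Among the genes of the cDC1 program, Irf8 (chromosome 8, 120736358 to 120756694, plus strand) encodes the factor that fixes cDC1 identity and is also used by monocyte progenitors. Its start had a −log10 q of 52.2 in mi8, 40.6 in OE, 33.0 in LMP8 and 72.6 in HP109, so it was open in all 4 lists. The window held 35 peaks in mi8, 19 in OE, 31 in LMP8 and 35 in HP109, and 17 of its 40 regions were in all 4. Of the 35 mi8 peaks, 17 (48.6%) were absent from OE, the highest share of the 8 members, against 40.2% of all mi8 peaks. With each list limited to its strongest peaks in equal number, 7 Irf8 peaks of mi8 were absent from OE and 2 of OE from mi8. At Irf4 these counts were 9 and 2. Over all peaks so limited, 19.4% of mi8 peaks were absent from OE and 15.1% of OE peaks from mi8.

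Irf8 is known for enhancers that are named by their distance from the start. The −50 kb element, a site of PU.1 binding, matched the region from 120685650 to 120686880, which had a −log10 q of 93.4 in mi8, 73.0 in OE, 55.4 in LMP8 and 106.07 in HP109. By distance alone, that region was nearer to Cox4i1, a gene outside the window, than to Irf8. The +32 kb element, at which BATF3 sustains Irf8 in cDC1, matched the region from 120768643 to 120768858, with 18.8 in mi8, 11.4 in LMP8, 11.8 in HP109 and no OE peak. The +56 kb element, known from monocytes and dendritic cells, matched the region from 120792726 to 120793070, with 20.8 in mi8, 7.19 in LMP8, 15.3 in HP109 and no OE peak. Around the +41 kb element, known from plasmacytoid cells and cDC1 progenitors, no list had a region within 2 kb. The nearest OE peak was 5.09 kb from the +32 kb region and 3.30 kb from the +56 kb region.

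Flanking the +32 kb region, regions centred at 30.5 and 31.2 kb from the start were found in mi8 and HP109 only. Upstream, the region centred 20.1 kb before the start had a −log10 q of 23.95 in mi8, 10.03 in LMP8 and 11.09 in HP109, and the one 10.9 kb before it had 25.2, 5.79 and 17.5. Neither had an OE peak. Other strong Irf8 regions were kept by OE: the region 16.3 kb before the start (120719811 to 120720225) had 86.9 in mi8, 68.2 in OE, 44.0 in LMP8 and 72.9 in HP109. The region 27.1 kb after the start had 70.1, 26.7, 56.7 and 79.0. Irf8 thus held both strong regions shared by all lists and weaker distal ones without an OE peak.

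**Figure D3:**
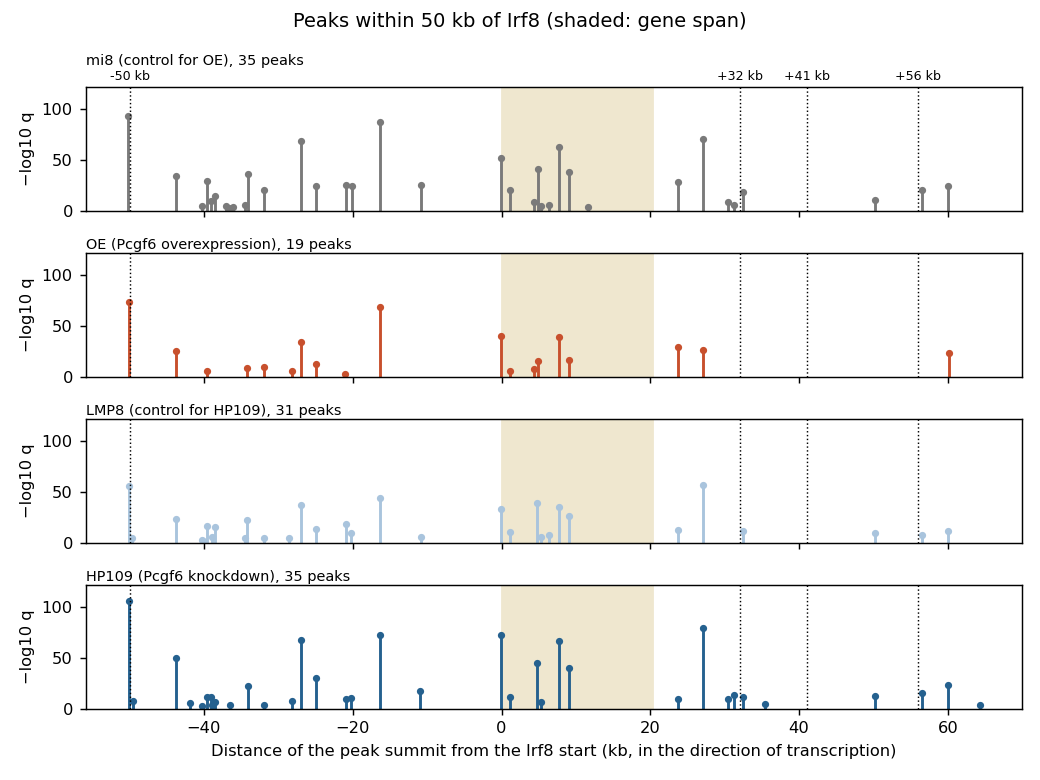
Peaks within 50 kb of Irf8, 1 panel per list, with the distance of each summit from the start in kb (horizontal axis) and −log10 q (height of the stem); shading marks the gene span and dotted lines the named enhancer distances. The stem at −50 kb stands in all 4 panels, none stands at +41 kb, and those at +32 and +56 kb are missing from the OE panel only.

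Batf3 (chromosome 1, 191098414 to 191108943, plus strand) encodes the AP-1 factor that pairs with IRF8 in cDC1. Its start had a −log10 q of 57.0 in mi8, 34.2 in OE, 46.7 in LMP8 and 85.5 in HP109. The window held 47 mi8, 33 OE, 44 LMP8 and 44 HP109 peaks, and 30 of 45 regions were in all 4 lists. An OE counterpart was missing for 15 of the mi8 peaks (31.9%), and every OE peak had an mi8 counterpart. Genome-wide, 40.2% of mi8 peaks and 4.57% of OE peaks lacked one, so Batf3 lay below the background in both directions. Stronger peaks stood nearer to Nsl1: the region from 191072431 to 191073711, centred 25.3 kb before the start, had 116.7 in mi8, 82.6 in OE, 58.5 in LMP8 and 115.9 in HP109. The OE peak that covers the Batf3 promoter reached over 147 of the 250 bases shown above.

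Id2 (chromosome 12, 25093799 to 25096092, minus strand) encodes an inhibitor of E proteins that cDC1 need. Its start carried the strongest member peak of HP109, with a −log10 q of 152.4, which exceeded 99.9% of that list. The same site had 112.9 in mi8, 119.7 in OE and 61.9 in LMP8, so it stood high in each. The window held 18, 11, 15 and 17 peaks in mi8, OE, LMP8 and HP109. A pair of regions 46.4 and 47.6 kb upstream had no OE peak: the first had 20.1 in mi8, 11.7 in LMP8 and 19.6 in HP109, and the second had 34.9, 12.5 and 18.0. For the second, the nearest OE peak was 13.5 kb away.

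Among the genes tied to cDC2, Irf4 (chromosome 13, 30749233 to 30766981, plus strand) encodes the factor of cDC2 and of GM-CSF-derived dendritic cells. Its start had a −log10 q of 96.9 in mi8, 93.0 in OE, 46.4 in LMP8 and 114.2 in HP109. The window held 39 mi8, 24 OE, 32 LMP8 and 45 HP109 peaks, and 22 of 44 regions were in all 4 lists. Its HP109 list had the most peaks absent from LMP8 of any member, 14 of 45 (31.1%, against 23.9% of all HP109 peaks). Of its mi8 peaks, 16 (41.03%, against 40.2% of all mi8 peaks) were absent from OE. With equal numbers of peaks per list, 4 of its HP109 peaks were absent from LMP8 and 2 of its LMP8 peaks from HP109. At Zbtb46 these counts were 6 and 3. Over all peaks so limited, the shares were 13.6% and 13.2%.

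Downstream of Irf4, toward Exoc2, regions kept and regions without an OE peak lay side by side. The region from 30786070 to 30786860, centred 37.2 kb after the start, had a −log10 q of 93.0 in mi8, 54.5 in OE, 49.0 in LMP8 and 103.3 in HP109. The region from 30788495 to 30788789, centred at 39.4 kb, had 33.0 in mi8, 33.0 in LMP8, 15.9 in HP109 and no OE peak, although an OE peak lay 0.191 kb away. In all, 5 regions between 33.0 and 45.6 kb were present in every list but OE with a −log10 q of at least 10 in some list. These 5 and the region at 37.2 kb lay nearer to Exoc2 than to Irf4. The strongest of the mi8 and OE peaks in this window, at 65.1 kb, reached 117.5 and 124.4 and was nearer to Exoc2 than to Irf4.

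**Figure D4:**
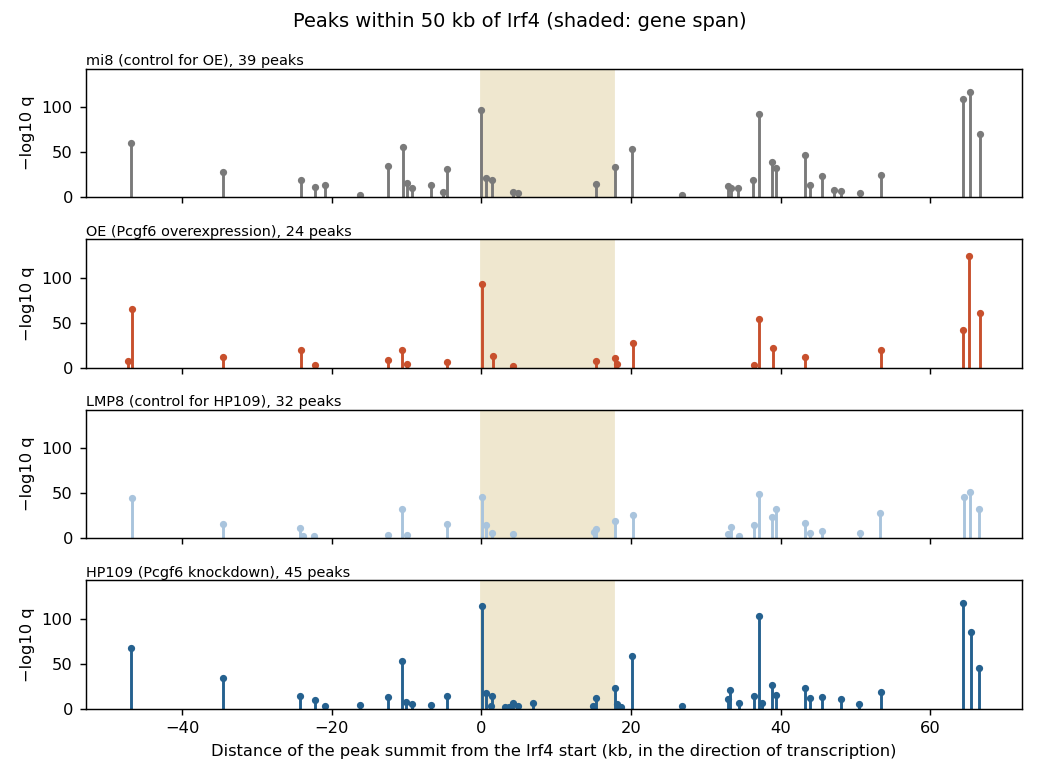
Peaks within 50 kb of Irf4, 1 panel per list, drawn as distance of the summit from the start in kb (horizontal axis) against −log10 q (height of the stem), with the gene span shaded. The start and the region at 37.2 kb stand in all 4 panels, while the stem at 39.4 kb is missing from the OE panel.

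Klf4 (chromosome 4, 55527137 to 55532475, minus strand) encodes a zinc finger factor of cDC2 subsets and of monocytes. Its start had a −log10 q of 83.4 in mi8, 120.9 in OE, 58.1 in LMP8 and 105.1 in HP109. The window held 18 mi8, 15 OE, 15 LMP8 and 18 HP109 peaks, and 14 of its 20 regions, the highest share of the members, were in all 4 lists. Only 4 mi8 peaks (22.2%, against 40.2% of all mi8 peaks) were absent from OE, the lowest share of the members. Klf4 was the 1 member with no region of −log10 q 10 or more in every list but OE. A region from 55509121 to 55509327 had an OE peak of 3.07 and an HP109 peak of 11.9 and none in mi8 or LMP8.

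Spi1 (chromosome 2, 91082374 to 91115759) encodes PU.1, the ETS factor of all myeloid lineages. Distances are from the lower end of its span, since no start was used here. Which of the regions below lies at a start and which is a distal element was therefore not determined. The region from 91082702 to 91084085 near that end had a −log10 q of 105.6 in mi8, 49.7 in OE, 48.6 in LMP8 and 101.3 in HP109. The region from 91096435 to 91097589, centred 14.6 kb into the span, had 77.2, 61.4, 65.6 and 122.4. The window held 39 mi8, 25 OE, 33 LMP8 and 39 HP109 peaks, and 24 of 43 regions were in all 4 lists. Within the span, the region from 91113414 to 91113770 had 21.8 in mi8, 14.4 in LMP8, 14.8 in HP109 and no OE peak.

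Zbtb46 (chromosome 2, 181371009 to 181493262, minus strand) encodes a zinc finger repressor that marks conventional dendritic cells. The strongest peaks within 1000 bases of its upper end belonged to 2 regions. The region from 181491920 to 181492630 had a −log10 q of 22.8 in mi8, 8.73 in OE, 17.2 in LMP8 and 25.1 in HP109. The region from 181492973 to 181493333 had 16.5 in mi8, 18.0 in OE, 6.48 in LMP8 and 21.6 in HP109. At the start of its RefSeq promoter entry, 181424388, peaks were weak: 3.4 in mi8, 2.7 in LMP8 and 7.0 in HP109, with none in OE. That start is not the upper end of the span, and the 250 bases before it held 0 CpG, against a median of 6 over all promoters. Whether it is the start used in these cells was not tested. Stronger peaks lay inside the span, such as the region from 181458510 to 181460381 with 68.1 in mi8, 49.9 in OE, 40.6 in LMP8 and 63.4 in HP109. The window, the widest of the 8, held 41 mi8, 36 OE, 38 LMP8 and 51 HP109 peaks. It also held 3 of the 6 member peaks of OE that were absent from mi8 (8.33% of its OE peaks, against 4.57% of all OE peaks). Among them was the region from 181410278 to 181410390, which was in OE alone with 13.3. The nearest peaks of the other lists were 0.294 to 0.318 kb from it.

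Bcl6 (chromosome 16, 23965050 to 23988866, minus strand) encodes a repressor needed by germinal centre B cells and by several dendritic cell subsets. Its upper end had a −log10 q of 56.7 in mi8, 38.3 in OE, 36.5 in LMP8 and 38.5 in HP109. The peaks over the 250 bases before the second start, 23981283, were weaker, with 23.3, 10.1, 6.40 and 16.7. A separate region inside the gene, 23982008 to 23983604, had 60.9, 48.7, 33.7 and 83.0. The window held 31 mi8, 25 OE, 31 LMP8 and 31 HP109 peaks, and 20 of 31 regions were in all 4 lists. Bcl6 was the 1 member with more LMP8 peaks absent from HP109 (4) than the reverse (2). These were 12.9% of its LMP8 peaks (8.06% of all LMP8 peaks) and 6.45% of its HP109 peaks (23.9% of all HP109 peaks). A region in its span, 23980061 to 23980776, had 18.4 in mi8, 13.9 in LMP8, 12.98 in HP109 and no OE peak.

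The comparison of OE with mi8 asks where sites differ when Pcgf6 is overexpressed. Of 268 mi8 peaks at the members, 90 were absent from OE, which is 33.6% (exact binomial 95% interval 28.0 to 39.6%, counting error only), against 40.2% of all mi8 peaks. In the other direction 6 of 188 OE peaks were absent from mi8, 3.19% (1.18 to 6.82%), against 4.57% of all OE peaks, and without Zbtb46 the share was 1.97%. With each list limited to its strongest peaks in equal number, the shares were 17.9% (19.4% of all peaks) and 9.04% (15.1%). All 8 members had more mi8 peaks absent from OE than the reverse, as did all 24 other factor genes and 81.4% of all genes. With equal numbers the counts were 36 and 17, with more mi8 peaks absent at 6 members and more OE peaks absent at Zbtb46 (5 against 2) and Klf4 (2 against 1). The members' shares lay near or below the background, so they are not a result particular to these genes.

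The absent peaks were mostly weak ones. Of mi8 member peaks with a −log10 q below 5, 27 of 31 were absent from OE (87.1%, against 85.5% of all such mi8 peaks). From 5 to 10 the count was 34 of 48 (70.8%, against 70.7%), and from 10 to 20 it was 19 of 56 (33.9%, against 39.0%). From 20 to 40 the count was 10 of 64 (15.6%, against 9.66%), and at 40 or above it was 0 of 69 (against 0.393%). Every strong mi8 peak of these genes, by that measure, thus overlapped an OE peak. Regions with a −log10 q of at least 10 in some list and a peak missing from at least 1 list numbered 38 of 293 at the members and made up 14.1% of all regions. Of the 38, 34 had no OE peak (89.5%, against 84.8% of all regions so selected), 11 no LMP8 peak (28.9%, against 31.7%), 2 no mi8 peak (5.26%, against 6.25%) and 1 no HP109 peak (2.63%, against 7.79%). The 27 in every list but OE, at 7 members, were 71.1%, against 63.1%. With equal numbers of peaks per list, 20 of the 27 (74.1%) kept a peak in each of mi8, LMP8 and HP109, against 51.2% of all such regions. The +32 and +56 kb regions of Irf8 were among the 20. OE is the shortest list and lost no peak by this limit, so it cannot test the absence from OE. A −log10 q of 10 also lies above the lowest value kept in mi8 (8.65), LMP8 (5.24) and HP109 (8.71). The peak by which a region was selected was therefore always kept. These shares were not tested against each other. The lists also differ in peak number and background, and the part of sequencing depth was not tested.

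The comparison of HP109 with LMP8 asks the same for knockdown of Pcgf6. Of 280 HP109 peaks at the members, 54 were absent from LMP8, 19.3% (14.8 to 24.4%), against 23.9% of all HP109 peaks. In the other direction 14 of 239 LMP8 peaks were absent from HP109, 5.86% (3.24 to 9.63%), against 8.06%. When the lists held equal numbers of peaks, the shares were 9.28% (18 peaks, 13.6% of all peaks) and 9.09% (18 peaks, 13.2% of all peaks). No HP109 member peak with a −log10 q of 20 or more lacked an LMP8 peak, 0 of 45 between 20 and 40 (against 1.08%) and 0 of 74 above (against 0.00513%). With all peaks, HP109 had the excess at 7 of 8 members, at 23 of the 24 other factor genes and at 68.6% of all genes. With equal numbers it had the excess at 3 members, LMP8 had it at 3, and 2 were level, so no excess was left in the total.

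The controls differed from each other as well. Of the mi8 member peaks, 48 of 268 were absent from LMP8, 17.9% (13.5 to 23.0%), against 24.9% of all mi8 peaks, and 13 of 239 LMP8 member peaks were absent from mi8, 5.44% (2.93 to 9.12%), against 5.98%. More mi8 peaks were absent from LMP8 than the reverse at 7 of 8 members, with Bcl6 equal at 4 each, and at 72.8% of all genes. The control vectors, neither of which alters Pcgf6, thus lacked a counterpart for 48 and 13 peaks, beside 54 and 14 for HP109 and LMP8. With equal numbers of peaks these were 25 (12.4%, 13.3% of all peaks) and 18 (9.09%, 11.0% of all peaks), beside 18 and 18, with the mi8 excess at 3 members, the LMP8 excess at Batf3 and 4 members level. The mi8 list enters both this comparison and that with OE, LMP8 enters both this one and that with HP109, and all 4 lists share the input.

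**Figure D5:**
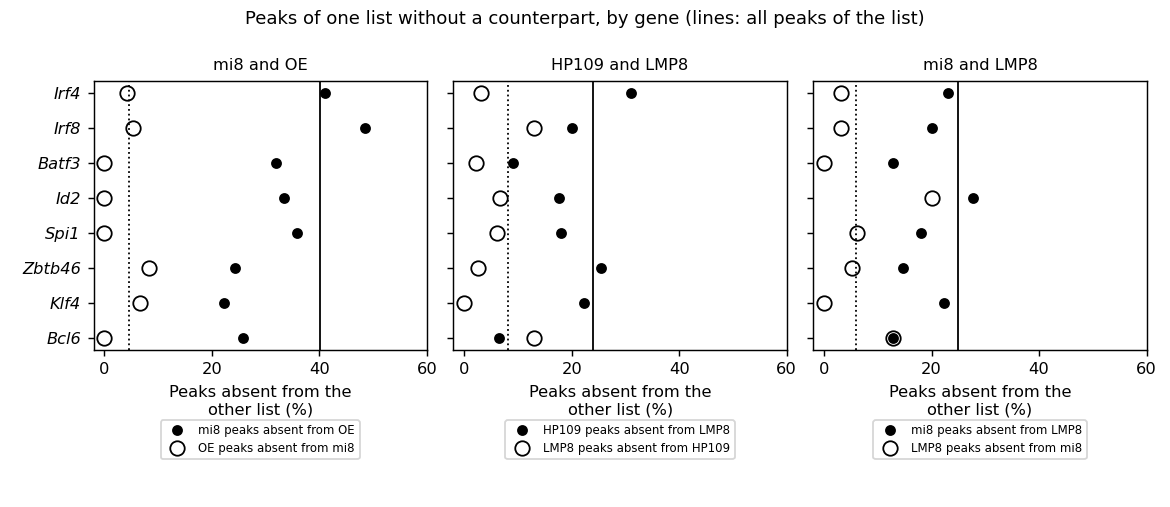
Percent of each member gene's peaks absent from the other list of a pair (horizontal axis), 1 panel per pair; filled points are the first list's peaks and open circles the second's, solid and dotted lines are the shares over all peaks of the first and second list, and at Bcl6 in the mi8 and LMP8 panel both lie at 12.9%. In the OE and mi8 panel every filled point exceeds its open circle, from 22.2% at Klf4 to 48.6% at Irf8.

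The other 24 dendritic cell factor genes, counted by the same rule, held 1102 regions, of which 46.9% were in all 4 lists. Of their 1002 mi8 peaks, 421 (42.0%) were absent from OE, and of 624 OE peaks 18 (2.88%) were absent from mi8. The per-gene median share of mi8 peaks absent from OE was 32.6% for the members, 43.2% for these genes and 38.1% for all genes. Within the 24 genes the share ran from 16.7% at Mycl (3 of 18 mi8 peaks) to 51.4% at Prdm1 (18 of 35). Over all mi8 peaks it was 40.2%. Mycl is a cDC1 factor of the MYC family, and Prdm1 encodes a repressor best known from plasma cells. For HP109 against LMP8 the 24 genes gave 218 of 974 (22.4%), and 74 of 835 (8.86%) in reverse.

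Tbx21, Ikzf3 and Nr4a1 had a peak within 1000 bases of a gene end in every list but OE, whose nearest peaks lay 11565, 4881 and 7089 bases from an end. Spib, a factor of plasmacytoid cells, had none within that distance in any list. The nearest peaks lay 1646 bases from an end in mi8 and OE, 1862 in LMP8 and 1914 in HP109. Their −log10 q was 4.36 in mi8, 52.5 in OE, 38.0 in LMP8 and 55.0 in HP109. The other 20 had one in all 4 lists. The 8 members had one in all 4 lists without exception.

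In strength, the members' median −log10 q was 19.9 in mi8, 15.2 in OE, 13.9 in LMP8 and 15.5 in HP109, against 14.4, 14.6, 11.4 and 14.1 over all peaks of the same lists. Peaks of 40 or above made up 25.7% of member peaks in mi8, 22.3% in OE, 15.1% in LMP8 and 26.4% in HP109, against 22.3, 21.1, 12.4 and 22.9%. Each member list was thus above its own background on both measures, by little in OE.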

How the data were processed

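ATAC-seq libraries of sorted marrow-derived dendritic cells were used, 2 per vector and 1 input. Reads were aligned to mm10 with BWA, handled with Picard and peaks called with MACS2, per the submitters' processing notes (no versions stated). Thresholds, read shifting, the depth of downsampling and the way libraries were joined: not given in the sources used here. Each deposited list holds, per peak, a score (10 times −log10 q), a fold enrichment over background (a ratio), −log10 p and −log10 q, all the authors' values from their peak caller. Read totals were not used here, so sequencing depth is unknown. The reads at the summit, computed from the deposited fold and −log10 p, had medians of 24 in mi8, 25 in OE, 19 in LMP8 and 21 in HP109.

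Only peaks on the autosomes, X and Y were used. Genes and spans came from RefSeq GRCm38.p6. Peaks overlapping by at least 1 base were merged into regions, and a window reached 50 kb beyond each span. Intervals are exact (Clopper-Pearson). Python 3.11.15, numpy 2.4.6, pandas 2.3.3, scipy 1.17.1 and matplotlib 3.10.9 were used, and counting was tested on simulated peaks. The members are all named, and their end peaks are described or drawn. Of their strongest peaks, and of their regions of −log10 q 10 or more missing from some list, only some are described. Members and lists were chosen with earlier results of these data known. Alternatives were a 25 kb and a 100 kb window, −log10 q of at least 5, a larger overlap, placement by summit, a shorter and a longer end distance, equal peak numbers and leaving out each gene.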

Additional observations from a re-analysis of the deposited data

How the results depend on the processing

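Of 96 alternative values, 90 stayed near the main value and 6 moved. Near means within its counting interval for percentages, and within 1.5 times for counts of the 16 member gene ends with a peak. With equal numbers of peaks per list, mi8 peaks absent from OE were 17.9% (all peaks 19.4%), OE peaks absent from mi8 9.04% (15.1%), HP109 peaks absent from LMP8 9.28% (13.6%) and mi8 peaks absent from LMP8 12.4% (13.3%). With a 100 kb window, mi8 peaks absent from OE were 39.95%. With a −log10 q of at least 5, LMP8 peaks absent from HP109 were 3% (6 of 200, against 5.63% of all such peaks). Leaving out each gene in turn gave 31.3 to 35.2% for mi8 absent from OE and 1.97 to 3.87% for the reverse, the lowest without Zbtb46. It gave 17.0 to 21.2% for HP109 absent from LMP8, 4.81 to 6.67% for the reverse, 17.0 to 19.0% for mi8 absent from LMP8 and 4.33 to 6.67% for its reverse. No paired analysis was possible because each vector has 1 pooled list and the columns carry no replicate. Leaving out a library was not possible for the same reason. Unknown depth and a shared input limit every statement that a peak is absent.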

Other observations

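For each member, the protein-coding gene with the most similar amount of peak-covered sequence in its window was sought, over the 4 lists and on a log2 scale of covered bases. Each was over 200 kb away or on another chromosome. The closest pair was Klf4 and Pcyox1, at a distance of 0.03: Klf4 had 8.28 kb covered in mi8, 6.70 in OE, 6.80 in LMP8 and 7.68 in HP109, and Pcyox1 had 8.29, 6.59, 6.73 and 7.66. Spi1 was nearest to Lrsam1 (0.04), Irf4 to Pacsin2 (0.05), Irf8 to Rpl22 (0.05), Batf3 to Plekhg6 (0.05), Id2 to Purb (0.05), Bcl6 to Ntn5 (0.07) and Zbtb46 to Clec12b (0.09). Irf8 had 10.4 kb covered in mi8, 5.25 in OE, 8.77 in LMP8 and 8.91 in HP109, while Zbtb46 had 16.2, 12.8, 14.1 and 17.0. These are descriptions over 4 pooled lists.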
